A study of Sus scrofa with 6 samples.

Results

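Nuclear tRNAs of 14 amino acids (Ala, Arg, Asn, Cys, Gln, Ile, Leu, Met, Phe, Pro, Ser, Thr, Trp and Tyr) were examined in small RNA from the duodenum of piglets. The members were windows of one fixed length, off the mitochondrial chromosome, in which either strand folded into a tRNA cloverleaf whose anticodon belongs to one of these amino acids. Paired stems alone matched 13316 windows, so a score that adds bases shared by nearly all tRNAs was also required. Of 37783 windows listed in the series, 37376 lay off the mitochondrial chromosome and 671 were members, beside 304 windows for Glu, Gly, Asp, His, Lys and Val. Among the members, 20 were copies of mitochondrial tRNA (Gln-TTG, Leu-TAA and Ser-TGA) on nuclear chromosomes, and they were left out of the values below. The remaining 651 windows covered 211 positions, here called genes, with 111 distinct tRNA sequences and 31 anticodon species, initiator Met being kept apart from elongator Met. The rule made no room for an intron, so the species found are not a full set. Of Tyr-GTA, Leu-CAA, Ile-TAT and Arg-TCT, whose genes often hold an intron, only Tyr-GTA was found. Its sequence, of 88 bases, folded with a variable loop of 21 bases, and whether that loop holds an intron was not tested.

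The animals were Sutai piglets aged 28 days that carried different alleles of FUT1, a fucosyltransferase gene, at its M307 site. GG piglets (512, 2134 and 2383) were sensitive to Escherichia coli with F18 fimbriae and AA piglets (524 and 2129) were resistant, so that n was 3 GG and 2 AA. Full sibs were 524 with 512 and 2129 with 2134; the AA sib of 2383 failed in sequencing and was not analysed here. Total RNA came from whole duodenal tissue, and piglet 512 was sequenced in 2 runs, which were added and counted as 1 animal. In bulk tissue, fewer cells of a type and less RNA per cell cannot be told apart. The tissue was not checked against cell type markers, since no protein or transcript table was used here.

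A tRNA carries an amino acid to the ribosome and reads the codon with its anticodon, 3 bases in the loop of the anticodon arm. tRNAs with different anticodons for the same amino acid are isoacceptors, and those with the same anticodon but other differences are isodecoders. In small RNA libraries tRNA appears as the mature molecule or as pieces of it, and cuts in the anticodon loop, which give 5′ and 3′ pieces, are a known response to stress. The genes are read by RNA polymerase III from boxes inside the gene and usually end at a run of T.

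The sequences on which the results turn are given first, as the gene sequence from the first to the last base of the acceptor stem, 5′ to 3′, with the anticodon in capitals. They were read from the listed windows, and their positions are in the coordinates of the lists, whose genome build is not given in the sources used here. The first set holds the most abundant species, Gln-CTG and its isoacceptor Gln-TTG, both 71 bases long.
Gln-CTG: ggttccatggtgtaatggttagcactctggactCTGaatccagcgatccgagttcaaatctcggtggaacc
Gln-TTG: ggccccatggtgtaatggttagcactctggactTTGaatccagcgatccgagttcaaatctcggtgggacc
The Gln-CTG sequence occurred at 5 genes, the first of them at chr1:170984314-170984384 on the minus strand. Gln-TTG occurred at 2 genes, the first at chr7:22023868-22023938 on the minus strand. Counting from base 1 at the 5′ end, Gln-TTG differed from Gln-CTG by T3C, T4C, C34T and A68G.

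The 3 Pro isoacceptors are shown because they differed at a single base, the first of the anticodon (A33C, A33T and C33T).
Pro-AGG: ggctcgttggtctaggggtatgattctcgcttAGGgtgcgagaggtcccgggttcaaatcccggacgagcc
Pro-CGG: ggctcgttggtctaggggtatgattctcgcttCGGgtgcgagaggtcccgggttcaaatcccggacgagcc
Pro-TGG: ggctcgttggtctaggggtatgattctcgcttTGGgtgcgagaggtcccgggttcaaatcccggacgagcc
They occurred at 8, 2 and 2 genes. Pro-CGG and Pro-TGG had genes close together, at chr3:35039912-35039982 and chr3:35034349-35034419, both on the minus strand.

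A pair of Arg isoacceptors follows, since Arg-CCG had the largest difference between the genotypes and Arg-TCG was nearest to it in sequence, with 6 differences (G2A, G5A, T32C, C34T, G59A and C72T).
Arg-CCG: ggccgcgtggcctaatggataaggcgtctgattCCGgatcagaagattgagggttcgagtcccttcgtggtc
Arg-TCG: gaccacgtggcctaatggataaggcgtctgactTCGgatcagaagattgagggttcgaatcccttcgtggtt
Both Arg-CCG genes lay on the minus strand, the first at chr3:35063163-35063234.

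The last set holds the 3 Ala isoacceptors, whose clusters often ended in the anticodon loop.
Ala-AGC: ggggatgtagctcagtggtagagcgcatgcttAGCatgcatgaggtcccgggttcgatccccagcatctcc
Ala-CGC: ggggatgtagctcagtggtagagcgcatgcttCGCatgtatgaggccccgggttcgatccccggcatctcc
Ala-TGC: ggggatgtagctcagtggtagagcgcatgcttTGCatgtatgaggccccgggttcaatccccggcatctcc
The Ala sequences shown were the same up to the anticodon, so reads that end before it cannot tell these isoacceptors apart. Over the first 33 bases Gln-TTG was identical to another Gln-CTG isodecoder (T3C, T4C and A68G from the sequence shown). Identity over these bases also joined Leu-AAG with Leu-TAG, and Ser-AGA with Ser-TGA.

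Members were unevenly spread over the genome. Chromosome 7 held 125 of the 211 genes (59.2%), of which 70 lay between 22 and 23 Mb, 11 between 23 and 24 Mb and 36 between 24 and 25 Mb. The run with the most genes, at gaps under 50 kb, spanned 233 kb at chr7:24009969-24242695 and held 36 genes, 18 of them for Ala and 6 for Phe-GAA. Another of 31 genes at chr7:22682371-22855136 held 10 genes for Ser-AGA and 4 for initiator Met. Elsewhere, 5 of the 8 Cys-GCA genes lay within 44.7 kb on chromosome 18, 7 of the 10 Asn-GTT genes within 97.1 kb on chromosome 4, and genes for Pro and Arg stood together in a run of 9 on chromosome 3. Isodecoder number varied as much: Ala-AGC had 11 distinct sequences and 6 species had 1 sequence each.

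A stop signal past the cloverleaf and the A and B boxes inside it were then compared with stretches without tRNA. A TTTT, the usual stop signal of RNA polymerase III, lay within 25 bases past the acceptor stem on the tRNA's strand in 159 of the 198 genes with those bases in a window (80.3%). Genes of the other 6 amino acids had it in 72 of 132 (54.5%), and stretches of the same length in windows without tRNA had it in 12.5% of 68738. An internal A box (T, any base, GC, any 2 bases, A, any 3 bases, G) was found in 95 of the 111 sequences (85.6%) and in 6.17% of stretches of 72 bases without tRNA. The B box, GTTCNANNC, was in 100 sequences (90.1%) and in 2.33% of such stretches. Some bases of both boxes entered the score that chose the members, so these shares describe the members and support nothing, whereas TTTT was not used. Boxes were searched on the strand of the tRNA, and on both strands of the stretches.

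Listed counts added up to between 42354 and 192861 per library, and each list left out windows with fewer than 5 counts. Nuclear members held 6.61% of these counts in 524 (AA; 6.41 to 6.82%, a 95% interval by Wilson's method) and 4.44% in 2129 (AA; 4.33 to 4.56%). In GG animals they held 4.32% and 4.16% in the 2 runs of piglet 512, 2.74% in 2134 (2.67 to 2.82%) and 4.72% in 2383 (4.52 to 4.93%). The intervals take counts as independent, but copies share reads, so they are too narrow even for counting error. They do not cover differences between animals. The highest share was in an AA library and the lowest in a GG library, but piglet 2383 (GG) lay above 2129 (AA), so the groups overlapped. The AA mean was 5.53% ± 1.53 (SD, n = 2) and the GG mean 3.90% ± 1.03 (SD, n = 3), a difference of -1.63 percentage points, or -0.54 without piglet 524. Piglet 2134, with the lowest share, also had the highest total and the lowest TMM factor (0.595). Together with its total, that factor gave a size factor of 1.13, by which its counts were divided below. Between sibs the share differed by -2.37 points (512 minus 524) and -1.70 points (2134 minus 2129). Among all nuclear tRNA counts, members made up 36.3 to 42.9% in the 6 libraries.

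Within the members, Gln was the largest amino acid in every piglet, with 21.2 to 30.5% of the member counts summed over all windows. Ala followed with a mean of 16.7%, Pro with 13.6%, Leu with 9.86%, Ser with 9.23% and Arg with 7.86%. This order did not hold in every piglet: Ala had 10.1% in 524, below Pro (13.96%), Ser (10.6%) and Leu (10.2%) there, and 16.86 to 20.01% in the others. Trp, Phe, Tyr and Thr had under 2% each on average. These sums count a read at each copy it matches, so amino acids with many copies weigh more: Ala had 108 of the windows and Pro 34.

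For each anticodon species the highest count of any of its windows was taken in each library, the runs of piglet 512 were added, and the result was divided by a size factor for depth, giving a scaled count. Of the 31 species, 30 reached 10 listed counts in 2 or more piglets and were tested; Thr-AGT had 6 to 15 counts and was not. Values below are scaled counts in the order AA piglets 524 and 2129, then GG piglets 512, 2134 and 2383. Where the lists of a piglet lacked a species its count was set to 2, which applied to 4 of 150 values, all in piglet 2383.

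Gln-CTG stood highest, with 166 and 142 in AA against 117, 137 and 120 in GG, and Gln-TTG came second, with 111 and 100.7 against 84.5, 87.8 and 88.9. Both kept these places in all 5 piglets, and also after division by length. Pro-CGG came next, with 73.7 and 77.5 against 73.2, 67.4 and 63.9. Its mean over piglets of 71.1 ± 5.41 (SD, n = 5) was within the spread of Pro-TGG (68.1 ± 6.32). It lay above Leu-CAG (61.5 ± 8.80) and Pro-AGG (58.3 ± 10.2) by more than their SD. Per 100 bases of tRNA, these 4 species had 100.2, 95.9, 75.03 and 82.2 scaled counts. The 3 Pro tRNAs, alike in the sequences shown but for a single anticodon base, had levels in this range. A read that misses that base counts for all 3, and Pro-CGG and Pro-TGG were within 2 counts in 4 of 6 libraries. Since the highest window was also taken, these levels cannot be set against numbers of genes (8 for Pro-AGG and 2 for Pro-CGG).

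**Figure D1:**
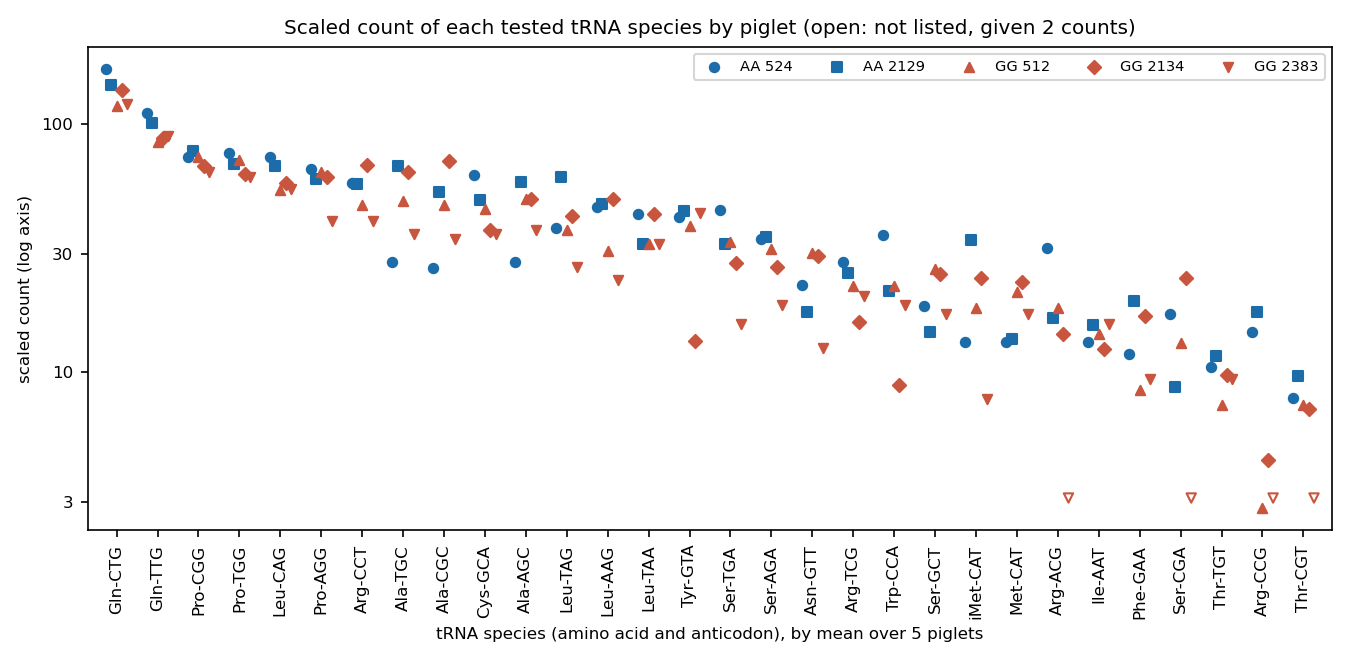
Scaled count (log axis) of each of the 30 tested tRNA species, ordered by the mean over 5 piglets; blue symbols are the 2 AA piglets, red symbols the 3 GG piglets, and open symbols values given to unlisted species. Gln-CTG ranked first and Gln-TTG second in every piglet, whereas Ala-AGC ranged from 27.7 to 58.1 within the AA group.

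At the low end of the order stood Thr-CGT (7.03 ± 2.41, SD, n = 5), Arg-CCG (8.46 ± 6.95) and Thr-TGT (9.73 ± 1.58). Their listed counts of 5 to 18 lay near the list minimum, so counting error weighs heavily there. The neighbours Ile-AAT (14.2 ± 1.402), Arg-ACG (16.7 ± 10.2) and elongator Met-CAT (17.6 ± 4.401) did not differ beyond their spread. Ile-AAT, a tRNA whose first anticodon base is made into inosine, had a narrow range, from 12.4 to 15.6. Phe-GAA, which reads both Phe codons, was at 11.9 and 19.4 against 8.51, 16.9 and 9.36.

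Isodecoders of a species differed in count. Gln-CTG had 7 sequences, and the first 3 were listed with 126, 124 and 112 counts in piglet 524 and with 154, 150 and 141 in piglet 2134. The second of these differed from the sequence shown by A58G. The fourth, with T20G and A68G, had 41 counts in piglet 524 and 66 in piglet 2134, below the first 3 in all 6 libraries. Cys-GCA, from the gene at chr18:54177811-54177881, had 47 and 51 counts in AA libraries and 39, 41, 42 and 23 in GG libraries, whereas its second sequence had 18 and 27, then 24, 16, 32 and 13. For Arg-CCT the first 2 sequences, one base apart (T65C), had 44 and 41 counts in piglet 524 and 77 and 67 in piglet 2134. A read that covers only shared bases counts for each isodecoder, so near-equal counts cannot be assigned to one gene.

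The position of the read clusters within the tRNA was independent of the rule, apart from the need to reach past base 95 of the window. The low end of each cluster lies at the middle base of its window, which gives the 5′ edge of the cluster for plus-strand genes and the 3′ edge for minus-strand genes. Over all libraries there were 397 listings of plus-strand windows and 722 of minus-strand windows, a listing being 1 window in 1 library. Copies of a sequence can list the same reads, so listings and their summed counts are not independent observations, here and below. On the plus strand, 235 of 397 listings (59.2%), with 75.2% of the count, began exactly at base 1 of the tRNA, and another 116 (29.2%) began between bases 16 and 50. Gln-CTG began at base 1 in 33 of 36 plus-strand listings, Ser-AGA in 39 of 50 and Ala-TGC in 36 of 44. Plus-strand clusters of Ile, Phe and Thr never did, in 15, 12 and 6 listings.

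3′ edges on the minus strand fell into several places. The discriminator base and the CCA tail, to which the amino acid is joined, add 4 bases to the acceptor stem. Their end was placed by counting bases on the genome sequence, and the tail itself was not looked for. From 4 bases before to 3 bases after that end lay 235 of 722 edges (32.5%), with 47.4% of the count. The 235 include 78 edges (10.8% of the 722), with 16.8% of the count, that lay 1 to 3 bases past it. Another 40 edges (5.54%), with 6.48% of the count, lay 4 or more bases past it. In the 7-base anticodon loop lay 120 edges (16.6%), with 12.7% of the count. Pro had 45 of 54 edges near the CCA end and 0 in the loop. Gln likewise had 32 of 49 near the CCA end and 0 in the loop, and Leu-CAG had 6 of 6 near the CCA end. By contrast, Ala had 55 of 128 edges in the anticodon loop, 51 of them at the first anticodon base, with 43.5% of its minus-strand count in the loop. Ile-AAT had 24 of 44 edges in the loop, all of them 2 bases before the anticodon and in every library, with 61.9% of its count. It had 1 sequence at 4 minus-strand genes, so the same reads can be listed at each of them.

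Other species had loop edges in some libraries. Leu-AAG had 15 of 45, in 3 of 6 libraries, initiator Met 12 of 36, in 2 libraries, and Ser-CGA 5 of 13, in 4 libraries. Cys-GCA had neither kind in 24 listings, its commonest 3′ edge being base 53, in 7 of them. Arg-CCT ended most often at base 66, in 16 of 30 listings. Cluster edges are not read ends, and read lengths were not listed. Whole tRNA, overlapping pieces of it and RNA that runs past its 3′ end thus cannot be told apart.

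**Figure D2:**
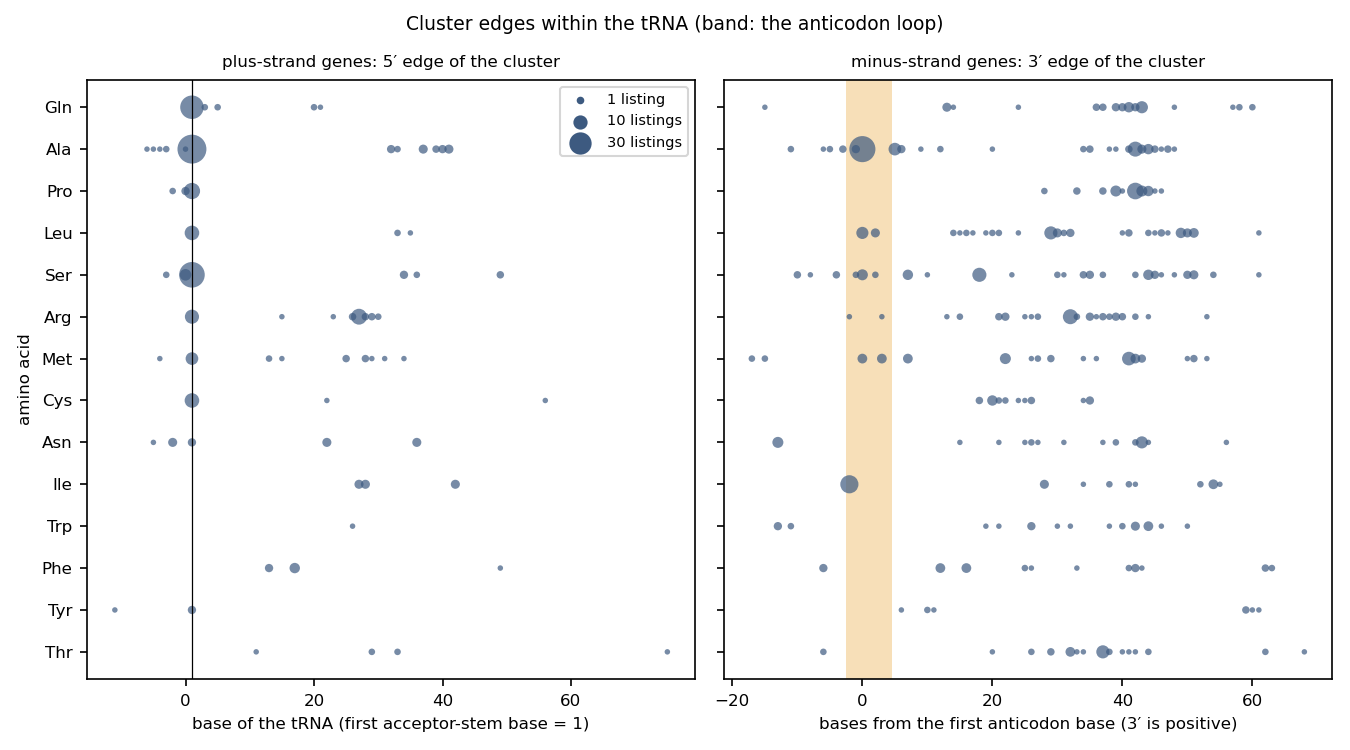
Cluster edges by amino acid: left, the 5′ edge on plus-strand genes as the base of the tRNA; right, the 3′ edge on minus-strand genes as the distance in bases from the first anticodon base, with the 7-base anticodon loop as a band. Circle area grows with the number of listings; 235 of 397 plus-strand edges sit at base 1, and the loop holds 55 of 128 edges of Ala but 0 of 54 of Pro.

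For Ala, the share of minus-strand count with a 3′ edge in the loop varied between libraries. It was 66.1% in AA piglet 524 and 13.95% in AA piglet 2129, and 73.5% and 62.3% in the runs of GG piglet 512, 34.8% in 2134 and 29.2% in 2383. The AA piglets stood at opposite ends and the GG piglets between or above them, so the groups overlapped, whereas the sibs 524 and 512 were both high. Highest counts of Ala clusters ending up to base 45 were nearly the same for the 3 isoacceptors in 5 of 6 libraries, for example 55 for each in piglet 2129 and 24, 22 and 23 in piglet 2383. In piglet 2134 they were 56 for Ala-AGC, 18 for Ala-CGC and 56 for Ala-TGC.

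Counting a cluster as on the 5′ side when a plus-strand edge lay at or before base 15 or a minus-strand edge at or before base 50, with each sequence and side counted once, the 5′ side held 30.3% and 35.8% in AA and 34.0%, 24.98% and 34.7% in GG. A whole tRNA counts as 5′ side by its start on the plus strand, but not by its 3′ end on the minus strand. With all windows summed, the 5′ side held 73.1 to 89.5% of plus-strand counts and 14.3 to 29.8% of minus-strand counts in the piglets. The pooled share thus depends on the mix of strands and does not measure 5′ pieces. The AA mean was 33.1% ± 3.88 (SD, n = 2), the GG mean was 31.2% ± 5.42 (SD, n = 3), and the groups overlapped. The difference of -1.82 points was smaller than the spread and turned to 0.92 without piglet 2129 and to 1.30 without 2134. Between sibs it differed by 3.72 points (512 minus 524) and -10.8 points (2134 minus 2129).

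Identical tRNA sequences on both strands were not counted alike. In 87 comparisons within a library, over 17 species, the highest count on the minus strand was above that on the plus strand in 87, with a median ratio of 2.33 and a range of 1.38 to 7. Gln-CTG, in the sequence shown, had 126 counts on the minus strand and 62 on the plus strand in piglet 524, and 147 and 70 in piglet 2129. Pro-AGG had 50 and 12, then 62 and 16. A narrower set took plus-strand clusters with a 5′ edge from base -6 to 1 and minus-strand clusters with a 3′ edge up to base 45. The plus-strand clusters can still be whole tRNA, so the strands were not compared like for like. In this set the ratio was above 1 in 25 of 25 comparisons over 7 species, with a median of 2.04. Most of these were of Ala-AGC, Ala-CGC and Ala-TGC, which are the same up to the anticodon and can share reads. In piglet 2383, for example, each had 10 counts on the plus strand and 22 on the minus strand. Repeat runs of the same piglet also entered both sets as separate libraries. The comparisons are thus not independent, and their numbers overstate the evidence. Copies on the same strand with the same edge had equal counts in 174 of 197 groups (88.3%). The rule that gathered reads into clusters is not given in the sources used here, and its part in the strand difference was not tested. Since the species value is the highest of any window, it came from the minus strand in 103 of 105 cases in which a species was listed on both.

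**Figure D3:**
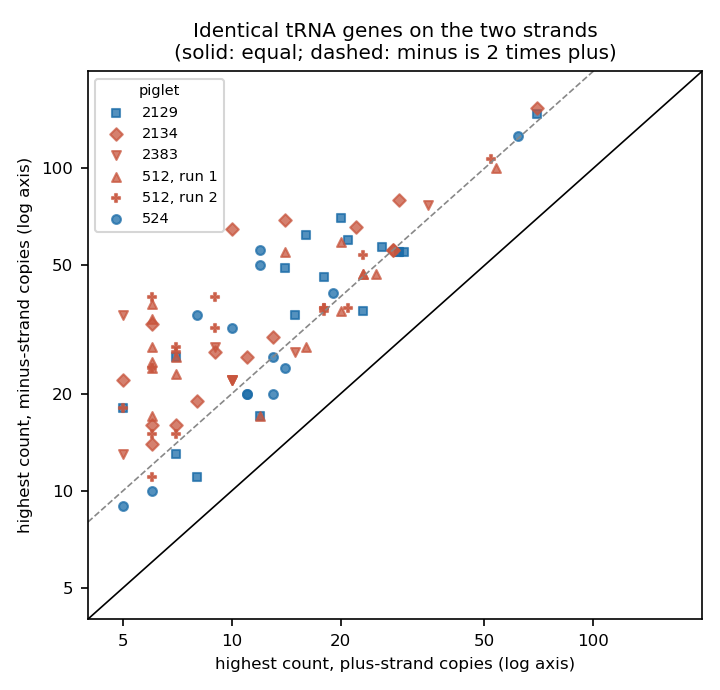
Highest count on minus-strand copies against plus-strand copies of the same tRNA sequence in the same library (both axes logarithmic); the solid line marks equal counts and the dashed line 2 times more on the minus strand. All 87 points lie above the solid line, in each of the 6 libraries, but points that share reads or a piglet are not independent.

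The genotypes were then compared, the question being whether tRNA differed between piglets sensitive and resistant to the bacterium. No species passed: 0 of 30 had a limma adjusted p under 0.05 over all 2567 features tested, as did 0% of all features. Arg-CCG had an unadjusted p under 0.05, as 1 of the 30, against 8.88% of all features. It passed the filter through its AA counts alone, and it is also among the species without overlap counted next. Fitted means were lower in GG for 24 of 30 species, against 37.5% of all features, and the median log2 difference was -0.30, against 0.29 over all features. In 10 of 30 species (33.3%) every GG piglet lay below both AA piglets, against 10.5% of all features, and in 1 every GG piglet lay above, against 23.2%. For tRNAs of the other 6 amino acids these counts were 12 of 12 lower in GG, with a median of -0.33 and 8 without overlap. Species that share reads are not independent, and no test of the list was made. The mean share of members in the listed counts was also lower in GG, with the overlap given above, and its part in these differences was not tested. Scaling by total counts alone moved the median of all features by -0.13, to 0.16, and that of the species to -0.44. Relative to all features the species lay at -0.60 under both scalings. A size factor moves all features of a piglet nearly alike, so this gap could hardly change and is no check of the scaling.

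**Figure D4:**
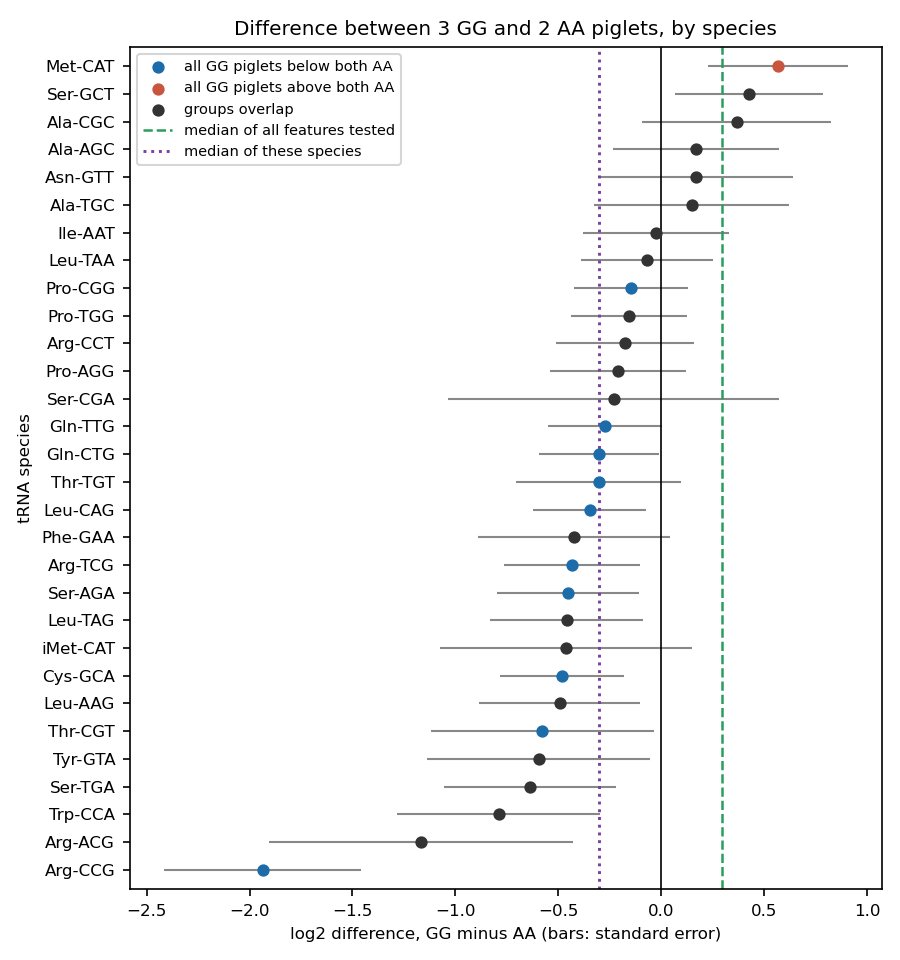
Log2 difference (GG minus AA, on log2 of the scaled count plus 1) of each tested species with its standard error from limma; blue points are species in which all GG piglets lay below both AA piglets and the red point the species in which all lay above. Of 30 points, 24 lie below 0; the dashed line is the median of all 2567 features (0.29) and the dotted line that of these species (-0.30).

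All 4 tested Arg tRNAs had a lower fitted mean in GG, while Arg-TCT was not among the species found. Arg-CCG, which reads the codon CGG, had 11 and 18 listed counts in AA piglets and 5 and 5 in GG piglets 512 and 2134, and was not listed in 2383. In scaled counts this was 14.5 and 17.4 against 2.84, 4.43 and 3.12, the last being the value given to an unlisted species, so that all GG piglets lay below both AA piglets. In piglet 512 it was listed in 1 of 2 runs and the other added 0, so its value lay below that given to unlisted piglet 2383. Only the 2 AA piglets reached 10 counts, so the species passed the filter through AA alone. The filter thus favoured lower GG values, and the lack of overlap supports nothing. Arg-CCG had a log2 difference of -1.94 (SE 0.48), with a limma p of 0.00593 and an adjusted p of 0.528, to which the same limit applies. Sibs differed by -2.01 (512 minus 524) and -1.76 (2134 minus 2129). Given 0 counts where unlisted, the difference was -2.62 with an adjusted p of 0.578, and given 4 counts -1.67 with 0.486; over all alternatives the limma adjusted p ran from 0.0936 to 0.872.

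Arg-TCG, its nearest neighbour in sequence, had 27.7 and 25.2 in AA against 22.1, 15.96 and 20.3 in GG, also without overlap, but with a smaller log2 difference of -0.43 (SE 0.33). Arg-ACG, another tRNA with inosine, had 31.6 and 16.5 against 18.2, 14.2 and 3.12, the last again unlisted, and its groups overlapped. Its difference of -1.17 (SE 0.74) was -0.48 without piglet 2383 and -0.72 without 524. Arg-CCT, the most abundant Arg species, had 57.9 and 57.1 against 47.1, 68.3 and 40.5, with a difference of -0.18 (SE 0.34), which was -0.02 without piglet 2383 and -0.39 without 2134. High and low GG piglets lay on both sides of the AA piglets there.

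Glutamine and asparagine tRNAs carry the amide amino acids. Both Gln species lay lower in every GG piglet than in both AA piglets, by -0.30 (SE 0.29) for Gln-CTG and -0.28 (SE 0.28) for Gln-TTG, with limma adjusted p of 0.664 and 0.672. Without piglet 524 the Gln-CTG difference was -0.19. Asn-GTT, whose anticodon can carry the modified base queuosine, had 22.4 and 17.4 against 30.1, 29.3 and 12.5. Its groups overlapped, and piglet 2383 was the lowest of the 5. The difference of 0.17 (SE 0.47) turned to -0.04 without piglet 512, to -0.02 without 2134 and to -0.0044 without 2129. It was 0.34 without 524 and 0.56 without 2383.

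Among tRNAs with a long variable arm, Leu and Ser, 7 of 8 species had a lower fitted mean in GG, with a median of -0.40. Leu-CAG, which reads the commonest leucine codon of mammals, had 73.7 and 67.8 against 53.9, 57.7 and 54.6, without overlap, a difference of -0.35 (SE 0.28). Ser-AGA had 34.2 and 34.9 against 31.2, 26.6 and 18.7, also without overlap (-0.45, SE 0.34, and -0.25 without piglet 2383). Ser-TGA had 44.8 and 32.9 against 33.5, 27.5 and 15.6, where piglet 512 lay just above 2129. Its difference of -0.64 (SE 0.42) was -0.33 without piglet 2383 and -0.42 without 524. Ser-GCT, which reads the AGC and AGU codons, was the exception, with 18.4 and 14.5 against 26.1, 24.8 and 17.2 and a difference of 0.43 (SE 0.36), or 0.26 without piglet 2129.

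The 3 Ala species had positive differences, of 0.37 for Ala-CGC, 0.17 for Ala-AGC and 0.15 for Ala-TGC (SE 0.40 to 0.47), whereas the 3 Pro species had negative ones, of -0.15 to -0.21. Ala-AGC had 27.7 and 58.1 in AA against 49.9, 49.7 and 37.4 in GG, and Ala-TGC had 27.7 and 67.8 against 48.8, 63.9 and 35.9. Piglet 524 was the lowest of the 5 for each Ala species, and piglet 2129 was the highest for 2 of them, so the AA pair spanned the GG piglets. Without piglet 524, all 3 Ala differences were negative, at -0.35 (Ala-AGC), -0.13 (Ala-CGC) and -0.48 (Ala-TGC). Ala-TGC also turned to -0.05 without piglet 2134. Summed over distinct sequences in place of the highest, Ala-AGC was at -0.12 and Ala-CGC at -0.0028.

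Cys and Met carry sulfur. Cys-GCA had 61.9 and 49.4 against 45.4, 37.3 and 35.9, without overlap, a difference of -0.48 (SE 0.30, limma adjusted p = 0.528). Elongator Met-CAT, which places Met inside proteins, had 13.2 and 13.6 against 21.0, 23.1 and 17.2, and was the one species higher in every GG piglet, by 0.57 (SE 0.34, limma adjusted p = 0.528). Summed over its distinct sequences in place of the highest, its difference was -0.22. Initiator Met, which starts proteins, had 13.2 and 33.9 against 18.2, 23.95 and 7.795, a difference of -0.46 (SE 0.61) that turned to 0.19 without piglet 2129 and was -0.02 without 2383, -0.78 without 2134 and -1.11 without 524. The ratio of initiator to elongator scaled counts was 1 and 2.5 in AA and 0.865, 1.04 and 0.455 in GG, with overlap between the groups.

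Threonine tRNAs were low throughout. Thr-TGT had 10.5 and 11.6 against 7.37, 9.76 and 9.36, and Thr-CGT had 7.90 and 9.69 against 7.37, 7.10 and 3.12, the last unlisted. Neither overlapped between the groups, with differences of -0.30 (SE 0.40) and -0.58 (SE 0.54). Thr-TGT was at -0.19 without piglet 512 and Thr-CGT at -0.24 without 2383. Of the aromatic tRNAs, Trp-CCA had 35.6 and 21.3 against 22.1, 8.87 and 18.7, a difference of -0.79 (SE 0.49), and Tyr-GTA had 42.1 and 44.6 against 38.6, 13.3 and 43.7. Piglet 2134 was the lowest for both, and without it the Tyr-GTA difference of -0.59 was -0.08 and the Trp-CCA difference -0.42. Trp-CCA was at -0.43 without piglet 524, and Tyr-GTA at -0.90 without 2383. Phe-GAA differed by -0.42 (SE 0.47), which was -0.09 without piglet 2129, -0.25 without 512, -0.71 without 2134 and -0.76 without 524. Ile-AAT differed by -0.03 (SE 0.35), and its sign changed without piglet 2129 (0.083) and without 2134 (0.054).

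Sib pairs were read side by side. In 17 of the 30 species both GG sibs lay below their AA sibs, in 4 both lay above, and in 9 the pairs went opposite ways. Of all 2567 features, 422 (16.4%) were lower in both, 1258 were higher in both and 887 went opposite ways. For tRNAs of the other 6 amino acids these numbers were 11, 0 and 1 of 12. The 17 species include Arg-CCG, which passed the filter through AA alone. Median log2 differences over the species were -0.21 for 512 against 524 and -0.20 for 2134 against 2129. The 2 runs of piglet 512 gave the technical scale. Listed in both were 30 species, which include untested Thr-AGT but not Arg-CCG, listed in run 2 alone. Over them the absolute log2 difference between runs, per total count, had a median of 0.24 and reached 0.77, for Trp-CCA.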

How the data were processed

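The authors deposited, per library, whole-number counts for windows of genome with coordinates and sequence, per the file headers; these values, of no standard unit (other), were used as listed. No aligner, build or clustering rule is named: these were not given in the sources used here. Records of the whole mitochondrial genome (16769 bases, in 4 lists) were left out. Cloverleaves were scored by paired bases plus 10 bases shared by nearly all tRNAs (at most 31); the minimum of 28 was chosen after the scores had been seen. Copies within 10 differences of the mitochondrial record were left out of the values. Windows without tRNA were merged where they overlapped by 1 base. Size factors were computed by TMM (trimming 30% of ratios and 5% of abundances) over 1586 regions listed in every piglet. They were 0.760, 1.03, 1.76, 1.13 and 0.641 for piglets 524, 2129, 512, 2134 and 2383.

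limma 3.58.1 (R 4.3.3, with a mean-variance trend) was run on log2(scaled count + 1) of all features with at least 10 counts in at least 2 piglets, which shrinks differences of low features; p-values were adjusted by Benjamini-Hochberg and called under 0.05. The step was run on simulated data with changes larger than any of these species showed, in features that share no reads. That run thus does not measure its power for the differences given here. Named species were the most abundant of each amino acid, those with an unadjusted p under 0.05 or without overlap between groups, and the 5 largest and 5 smallest differences. Members and lists were chosen with earlier results of these data known. Full sibs per the labels form 2 pairs; across all 2567 features the difference 524 minus 2129 correlated with 512 minus 2134 at 0.22. Because the counts share a column with text lines, the planned edgeR alternative was not run. Python 3.11.15 with NumPy 2.4.6 and SciPy 1.17.1 did the rest. Some tRNA sequences are not reported here.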

Additional observations from a re-analysis of the deposited data

How the results depend on the processing

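The number of species called was 0 under all 19 alternatives run, and the median log2 difference of the species stayed negative, between -0.44 (total counts alone) and -0.25; leaving out each piglet gave -0.37 to -0.25. With the sib pair as a replicate block (2 AA against 2 GG) the median was -0.25, 0 species were called and 14 of 2527 features were, against 0 in the fit without it; the block changed no other call. Total counts alone called 35 features, no filter 74 of 24367, and leaving out piglet 2129 or 2134 called 1 and 4; no tRNA of the members was among them. Of 440 alternative values of the 24 named species, 426 kept their direction and 0 were called. Dropping the filter, minimum scores of 27 and 29 and limma without a trend gave these species the same differences as the main fit. Kept mitochondrial copies and minus-strand windows alone did so for nearly all. These settings add to the values that kept their direction without testing it. Summed over distinct sequences, Ala-AGC turned to -0.12, Ala-CGC to -0.0028 and Met-CAT to -0.22. With run 1 of piglet 512 alone, Ile-AAT turned to 0.0037. Leaving out 1 piglet gave -0.35 to 0.69 for Ala-AGC, -0.13 to 0.86 for Ala-CGC, -0.48 to 0.78 for Ala-TGC, -0.040 to 0.56 for Asn-GTT, -0.14 to 0.083 for Ile-AAT and -1.11 to 0.19 for initiator Met. Arg-CCG ranged from -2.62 to -1.64, its smallest adjusted p being 0.0936; without either AA piglet it did not pass the filter. The share of listed counts differed by -2.71 to -0.54 points when 1 piglet was left out and by -0.74 with all stems fully paired, and the share of 5′ side clusters by -4.57 to 1.30. The causes were not tested. With 1 AA piglet left, its spread was assumed to be that of the GG group. The minimum scores of 27 and 29, kept mitochondrial copies, minus-strand windows alone and limma without a trend were chosen after the data had been seen. The planned edgeR fit was not run, because the counts share a column with text lines and were not entered as a count unit. Depth limits the precision of species near the list minimum of 5 counts.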
